A study of Homo sapiens with 6 samples.

Results

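Aminoacyl-tRNA synthetases are the enzymes that load each amino acid onto its tRNA. The genes examined here were 35 of the 67140 gene identifiers in the deposited table, taken by gene name from a list drawn up with earlier results of these data known: 19 that encode cytosolic enzymes and 16 that encode mitochondrial enzymes. All 35 passed the filter on low counts, together with 19254 identifiers in all. KYSE150, an established line of human esophageal squamous cell carcinoma, was sequenced as 3 samples with a control hairpin (shCtrl) and 3 samples with a hairpin against the lncRNA AC007128.1 (shAC007128.1). The cells were grown in RPMI medium with fetal bovine serum, and the study's methods describe stable lentiviral lines selected with puromycin. There was 1 hairpin in each group, so the effect of the lncRNA and of this hairpin sequence cannot be told apart. The growth text in the labels names shCtrl and the treatment text names shAC007128.1 for every sample, so the groups were taken from the titles and descriptions. Nothing says that the 3 samples of a group came from separate cultures, so p-values measure only the spread between these samples, which may be technical. In bulk RNA, fewer cells that express a gene and less RNA per cell cannot be told apart.

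Each tRNA has to carry the right amino acid before the ribosome can use it, and a dedicated synthetase makes that match. The enzymes fall into class I and class II by the fold of their catalytic domain, and several cytosolic ones assemble into a large multisynthetase complex. Mitochondria translate their own few mRNAs with a separate set of synthetases that the nucleus encodes, while GARS1 and KARS1 each serve both compartments. Uncharged tRNA is sensed by the kinase GCN2 (EIF2AK4), which raises translation of the transcription factor ATF4, and many cytosolic synthetase genes are known ATF4 targets.

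Total counts were 55764405 to 78610457 per sample, and a floor of 3 counts corresponded to 0.0373 to 0.0546 CPM, the unit in which counts are divided by the library size after scaling by TMM. That floor covers counting error only. All 7 markers of squamous epithelium examined were at 32.5 CPM or more in every sample. Of 8 markers of fibroblasts, leukocytes and endothelium, COL1A1 and CD68 were at 13.3 to 67.3 CPM and the other 6 at 2.45 CPM or less, with PTPRC at 0.164 CPM or less. Several markers moved with the groups. KRT14, KRT6A, KRT5, SFN, CDH1 and COL1A1 rose (log2 fold changes of 2.28, 2.46, 0.87, 0.67, 0.21 and 0.33), and DSG3 and CD68 fell (-1.09 and -1.87), all at an edgeR adjusted p of at most 0.05. An annotated lncRNA on the same strand covers 1765 of the 2163 exonic bases of CD68. The part of these shifts in the synthetase results was not tested. AC007128.1 itself had 69, 33 and 53 counts in the shCtrl samples and 18, 37 and 15 in the shAC007128.1 samples. Of its 1853 exonic bases, 398 are shared with ICA1-AS1 and 384 with ENSG00000272328 on the same strand. It also shares 118 with ICA1 on the opposite strand, so the count of AC007128.1 is uncertain. Its groups overlapped, at 0.712 ± 0.273 CPM (SD, n = 3) against 0.417 ± 0.224 CPM (SD, n = 3), and the difference did not pass the test (log2 fold change -0.77, edgeR adjusted p = 0.271, two-sided exact permutation p = 0.2, where 0.1 is the smallest p possible). Every direction given here is therefore that of the libraries labelled shAC007128.1 against those labelled shCtrl.

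The promoters of some synthetase genes hold the letters of the C/EBP-ATF composite element, the kind of site through which ATF4 acts on amino acid response genes. The letters searched were TGATGNAAN on both strands, where N is any base, in RefSeq promoters of 300 bases (250 before and 50 after the gene's start, GRCh38.p14). They were found in 7 of 21 promoters of cytosolic synthetases (33.3%), in 1 of 18 promoters of mitochondrial synthetases (5.56%) and in 1268 of all 35116 promoters (3.61%). The table held promoters for 16 of the 19 cytosolic and 14 of the 16 mitochondrial genes, some with more than 1 start, and held none for LARS1, VARS1, YARS1, AARS2 and VARS2. The 8 matches are shown because the genes that hold them are set against their expression further on. Each is 30 bases on the strand of its gene, with the match in capitals.
AARS1, chr16:70289675-70289704, minus strand: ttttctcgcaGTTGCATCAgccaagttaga
CARS1, chr11:3057407-3057436, minus strand: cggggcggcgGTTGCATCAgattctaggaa
GARS1, chr7:30594834-30594863, plus strand: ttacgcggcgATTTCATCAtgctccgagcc
IARS1, chr9:92293692-92293721, minus strand: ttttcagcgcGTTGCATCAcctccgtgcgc
MARS1, chr12:57488053-57488082, plus strand: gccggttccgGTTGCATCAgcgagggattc
NARS1, chr18:57621803-57621832, minus strand: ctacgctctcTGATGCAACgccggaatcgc
TARS1, chr5:33440956-33440985, plus strand: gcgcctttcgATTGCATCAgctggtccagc
YARS2, chr12:32756075-32756104, minus strand: tccacactgcTGATGGAAAaattaagttta

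In 6 of these 8 promoters the match reads on the antisense strand of the gene, and in NARS1 and YARS2 on the sense strand. It lay 3 to 34 bases before the start in CARS1, GARS1, IARS1 and MARS1, 188 bases before it in AARS1 and 197 bases before it in YARS2, and in NARS1 and TARS1 it lay just after the start. A CCAAT box (CCAAT on either strand), a common promoter element, was searched in the same promoters for comparison. It was found in 9 of 21 cytosolic (42.9%), 11 of 18 mitochondrial (61.1%) and 34.6% of all promoters. The 30-base windows around the composite matches shared no base with those around the CCAAT boxes. A match of letters is a description and not a bound site.

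In the shAC007128.1 samples, most cytosolic synthetase mRNAs fell and several mitochondrial ones rose. Of the 19 cytosolic genes, 12 fell, 0 rose and 7 did not pass the test, which was edgeR's quasi-likelihood test with a limit of 0.05 on the p adjusted by Benjamini-Hochberg over all genes tested. Among all genes tested 19.8% fell and 21.0% rose by the same rule. Of the 16 mitochondrial genes, 2 fell, 7 rose and 7 did not pass. The median log2 fold change was -0.48 over the cytosolic genes (range -1.57 to 0.18) and 0.14 over the mitochondrial genes (range -0.64 to 0.92), against -0.02 over all genes tested. The mitochondrial median was 0.24 without shAC007128.1 replicate 3 and 0.072 with library size as the only scaling. With the further limit of a fold of at least 2, 4 cytosolic genes and 0 mitochondrial genes were called lower and none of the 35 was called higher. By that rule 10.1% of all genes tested were called lower and 5.57% higher.

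The samples of the groups did not overlap for 14 cytosolic genes that were lower and 1 that was higher, and for 2 mitochondrial genes that were lower and 7 that were higher. Over all genes tested, 28.2% were lower and 27.0% higher without overlap. The plot of every gene by sample shows this split between the compartments.

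**Figure D1:**
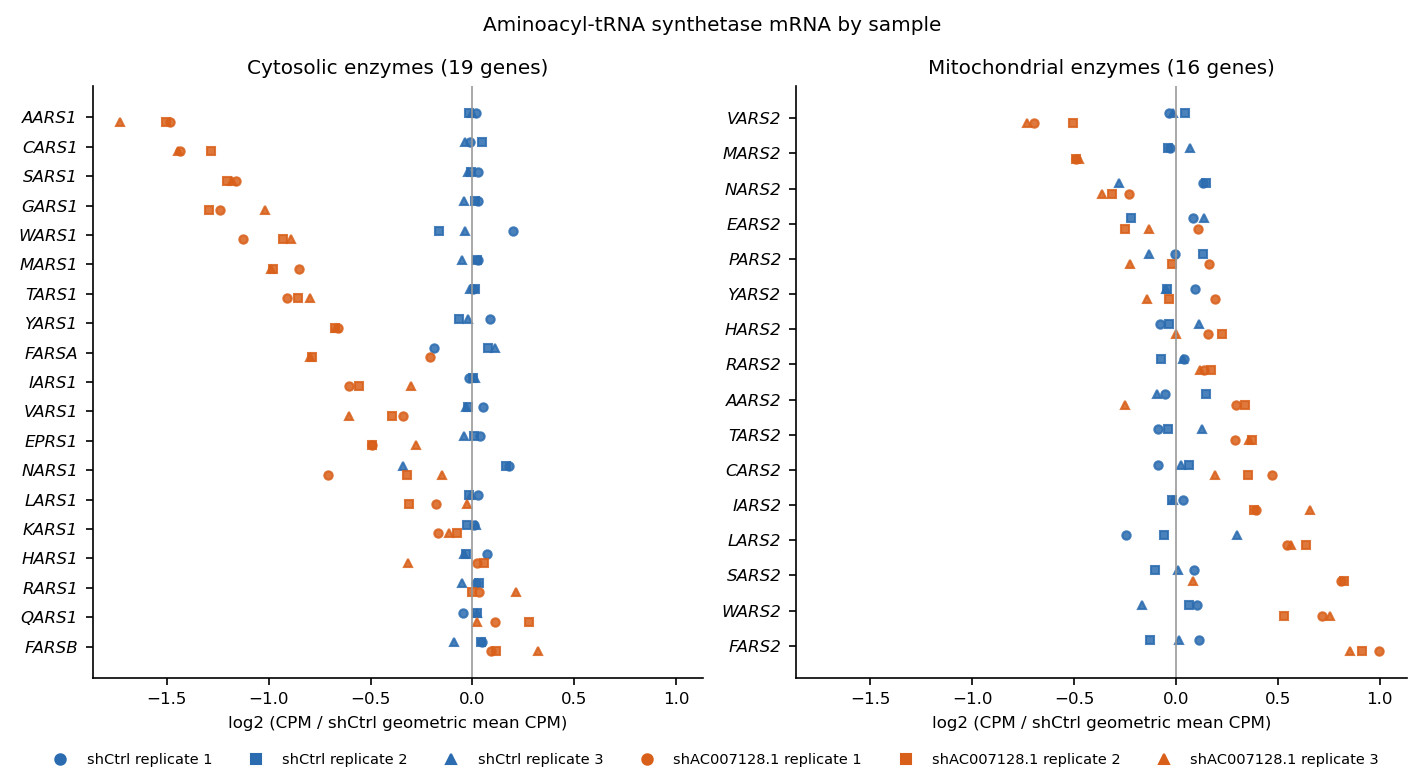
Each point is 1 sample, at its log2 ratio of CPM to the geometric mean of the 3 shCtrl samples (x axis), for 19 cytosolic genes (left) and 16 mitochondrial genes (right), with blue for shCtrl, orange for shAC007128.1 and the marker shape for the replicate number. The orange points lie left of the blue ones without overlap for 14 cytosolic genes and right of them for 7 mitochondrial genes.

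AARS1, the alanyl-tRNA synthetase (ENSG00000090861, chromosome 16, 70251983 to 70289707), fell most. It stood at 898.1, 879.1 and 888.3 CPM in shCtrl samples 1 to 3 and at 317.1, 313.4 and 268.2 CPM in the shAC007128.1 samples. All 3 shAC007128.1 samples were far below the lowest shCtrl sample, and the means were 888.5 ± 9.49 and 299.6 ± 27.2 CPM (SD, n = 3 each), 33.7% of control. The log2 fold change was -1.57 (SE 0.08, edgeR adjusted p = 2.9e-05).

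CARS1, which charges cysteine (ENSG00000110619, chromosome 11, 3000922 to 3057613), had 274.4, 286.0 and 269.8 CPM in the shCtrl samples and 102.2, 113.6 and 101.6 CPM in the shAC007128.1 samples. The groups were well apart, at 38.2% of control. The log2 fold change was -1.39 (SE 0.07, edgeR adjusted p = 3.21e-05).

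SARS1, the seryl-tRNA synthetase (ENSG00000031698, chromosome 1, 109213918 to 109238182), also supplies the seryl-tRNA from which selenocysteinyl-tRNA is made. It measured 447.8, 436.0 and 432.5 CPM in shCtrl and 196.1, 190.7 and 193.9 CPM in shAC007128.1 samples. The spread within each group was small beside the gap, with means of 438.8 ± 8.04 and 193.6 ± 2.72 CPM (SD, n = 3 each). The log2 fold change of -1.18 (SE 0.06) had the smallest p of all 35 genes (edgeR adjusted p = 2.54e-05).

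GARS1, the glycyl-tRNA synthetase of both compartments (ENSG00000106105, chromosome 7, 30580533 to 30634033), had 704.2, 697.6 and 670.7 CPM in shCtrl and 292.2, 282.2 and 340.9 CPM in shAC007128.1 samples. Replicate 3 was the highest of the shAC007128.1 samples and still far under the lowest shCtrl sample. The log2 fold change was -1.18 (SE 0.08, edgeR adjusted p = 7.94e-05). The other enzyme with both addresses, KARS1 for lysine, was at 92.0% of control and did not pass (log2 fold change -0.12, edgeR adjusted p = 0.14).

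MARS1, the methionyl-tRNA synthetase (ENSG00000166986, chromosome 12, 57475445 to 57517569), measured 341.7, 340.3 and 323.4 CPM in shCtrl and 185.6, 170.2 and 169.0 CPM in shAC007128.1 samples. The groups did not overlap, and the level was 52.2% of control, just short of the limit on fold (log2 fold change -0.94, SE 0.07, edgeR adjusted p = 8.28e-05). MARS1 shares 355 of its 7028 exonic bases with DDIT3 on the opposite strand. DDIT3 fell from 80.8 ± 13.3 to 11.5 ± 3.18 CPM (SD, n = 3 each), and because the use of strand in the counting is not given, its part in the MARS1 value was not tested.

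TARS1, which charges threonine (ENSG00000113407, chromosome 5, 33440696 to 33468091), had 290.8, 291.9 and 287.0 CPM in shCtrl and 154.1, 160.0 and 166.5 CPM in shAC007128.1 samples. These 6 samples formed a pair of tight groups, at 55.3% of control (log2 fold change -0.86, SE 0.06, edgeR adjusted p = 8.3e-05).

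WARS1, the tryptophanyl-tRNA synthetase, showed more spread among its controls. Its levels were 221.2, 172.3 and 188.2 CPM in shCtrl and 88.2, 101.1 and 104.0 CPM in shAC007128.1 samples. The groups remained apart, and the log2 fold change of -0.99 (SE 0.11, edgeR adjusted p = 0.000559) lay at the limit of a fold of 2, passing it in 9 of the 14 alternative settings.

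Smaller falls were seen for YARS1 (tyrosine, log2 fold change -0.67), IARS1 (isoleucine, -0.48), VARS1 (valine, -0.44) and EPRS1, the fused enzyme for glutamate and proline (-0.42). In edgeR their adjusted p-values ranged from 0.000298 to 0.00568, and none of the 4 overlapped between groups. The cytosolic phenylalanyl-tRNA synthetase is built from an alpha subunit, FARSA, and a beta subunit, FARSB, and the values of its subunits went in opposite directions. FARSA measured 157.7, 189.6 and 194.0 CPM in shCtrl and 155.4, 104.2 and 103.3 CPM in shAC007128.1 samples. Replicate 1 of shAC007128.1 nearly reached replicate 1 of shCtrl, and its fall of 0.58 on the log2 scale (SE 0.17, edgeR adjusted p = 0.0326) no longer passed in 5 of 14 alternative settings, in which it remained negative. FARSB was at 113% of control (log2 fold change 0.18, edgeR adjusted p = 0.157) and did not pass, and the difference between the subunits was not tested.

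The other cytosolic genes that did not pass had log2 fold changes of -0.39 for NARS1 (asparagine), -0.17 for LARS1 (leucine), -0.07 for HARS1 (histidine), 0.08 for RARS1 (arginine) and 0.14 for QARS1 (glutamine). NARS1 was the most uneven of them, at 334.6, 331.3 and 233.6 CPM in shCtrl and 181.3, 237.0 and 266.5 CPM in shAC007128.1 samples. Replicate 3 of shCtrl lay inside the shAC007128.1 range, and without it NARS1 passed (edgeR adjusted p = 0.0447). The same sample was also the lowest control for NARS2, the mitochondrial asparaginyl-tRNA synthetase, which had 61.3, 62.0 and 46.1 CPM in shCtrl samples. Without that sample NARS2 passed too (log2 fold change -0.44, edgeR adjusted p = 0.0166).

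The genes of the multisynthetase complex can be set beside the cytosolic genes outside it. Of the 7 genes whose enzymes sit in the complex, EPRS1, IARS1 and MARS1 fell and 4 did not pass, with a median log2 fold change of -0.17. Of the 12 cytosolic genes outside it, 9 fell, 4 of them called, with a median of -0.76. The shares over all genes tested were 19.8% that fell and 10.1% called lower. The difference between these groups of genes was not tested. By catalytic class, 6 of 9 class I and 5 of 9 class II cytosolic genes fell, with medians of -0.48 and -0.58. EPRS1 holds a catalytic domain of each class and was counted in neither.

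Among the mitochondrial genes, FARS2, the phenylalanyl-tRNA synthetase of the organelle, rose most (ENSG00000145982, chromosome 6, 5261044 to 5829192). It had the lowest level per length of the 35 in shCtrl cells, and measured 6.42, 5.43 and 6.01 CPM in shCtrl and 11.9, 11.2 and 10.7 CPM in shAC007128.1 samples. All shAC007128.1 samples exceeded all shCtrl samples, at 189% of control (log2 fold change 0.92, SE 0.13, edgeR adjusted p = 0.00148). The counts behind these values were 408 to 667 per sample.

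WARS2, the mitochondrial enzyme for tryptophan (ENSG00000116874, chromosome 1, 119031216 to 119140654), had 46.0, 44.7 and 38.1 CPM in shCtrl and 70.2, 61.8 and 72.2 CPM in shAC007128.1 samples. It rose without overlap to 159% of control (log2 fold change 0.66, SE 0.11, edgeR adjusted p = 0.00242), while its cytosolic counterpart WARS1 fell. IARS2, the mitochondrial synthetase mRNA with the highest level per length, rose from 420.4 ± 8.99 to 588.1 ± 65.4 CPM (SD, n = 3 each), with a log2 fold change of 0.48 (edgeR adjusted p = 0.00376).

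The remaining rises were less firm. LARS2 (log2 fold change 0.57, edgeR adjusted p = 0.0182), TARS2 (0.34, 0.0232) and CARS2 (0.34, 0.0281) were separated between groups. SARS2 had 20.8, 18.2 and 19.7 CPM in shCtrl and 34.2, 34.6 and 20.7 CPM in shAC007128.1 samples, so replicate 3 of shAC007128.1 lay inside the control range although the gene passed (0.61, edgeR adjusted p = 0.0445). Its pass was lost in 9 of 14 alternative settings, against 8 for CARS2, 5 for TARS2 and 3 for LARS2, and in 0 for FARS2, WARS2 and IARS2. The number of mitochondrial genes that rose was 3 without shCtrl replicate 1, without shCtrl replicate 2 or without shAC007128.1 replicate 2.

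VARS2 and MARS2 were the mitochondrial genes that fell. VARS2, for valine (ENSG00000137411, chromosome 6, 30914205 to 30926459), had 113.6, 120.1 and 115.3 CPM in shCtrl and 71.7, 82.0 and 70.1 CPM in shAC007128.1 samples. The groups were apart (log2 fold change -0.64, SE 0.09, edgeR adjusted p = 0.00104). An annotated lncRNA on the same strand, ENSG00000288473, covers 63.0% of the exonic bases of VARS2, so the share of reads between these genes is uncertain. That lncRNA was at 35.05 ± 2.38 CPM in shCtrl and 32.8 ± 9.39 CPM in shAC007128.1 samples (SD, n = 3 each).

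MARS2, the mitochondrial enzyme for methionine (ENSG00000247626, chromosome 2, 197705369 to 197708395), measured 37.4, 37.1 and 40.0 CPM in shCtrl and 27.2, 27.1 and 27.4 CPM in shAC007128.1 samples. The shAC007128.1 samples were almost equal and all below the controls (log2 fold change -0.49, SE 0.08, edgeR adjusted p = 0.00292). The mitochondrial genes that did not pass were NARS2 (log2 fold change -0.31), EARS2 for glutamate (-0.09), PARS2 for proline (-0.03), YARS2 (0.01), HARS2 (0.13), RARS2 (0.14) and AARS2 (0.15). In class I, 4 mitochondrial genes rose and 2 fell of 9, and in class II 3 rose and 0 fell of 7. Over all genes tested 21.0% rose and 19.8% fell, and the difference between the classes was not tested.

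Of the 35 genes, 22 share exonic bases with another annotated gene, and 5 share more than 10% of them: VARS2, SARS2 (48.2%, with ENSG00000269547, which was listed at 0 in every sample), YARS2 (18.1%), MARS1 (13.3%) and WARS1 (10.6%). HARS1 and HARS2 lie head to head and share 108 exonic bases on opposite strands. The values of these genes are therefore less certain than those of the others.

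**Figure D2:**
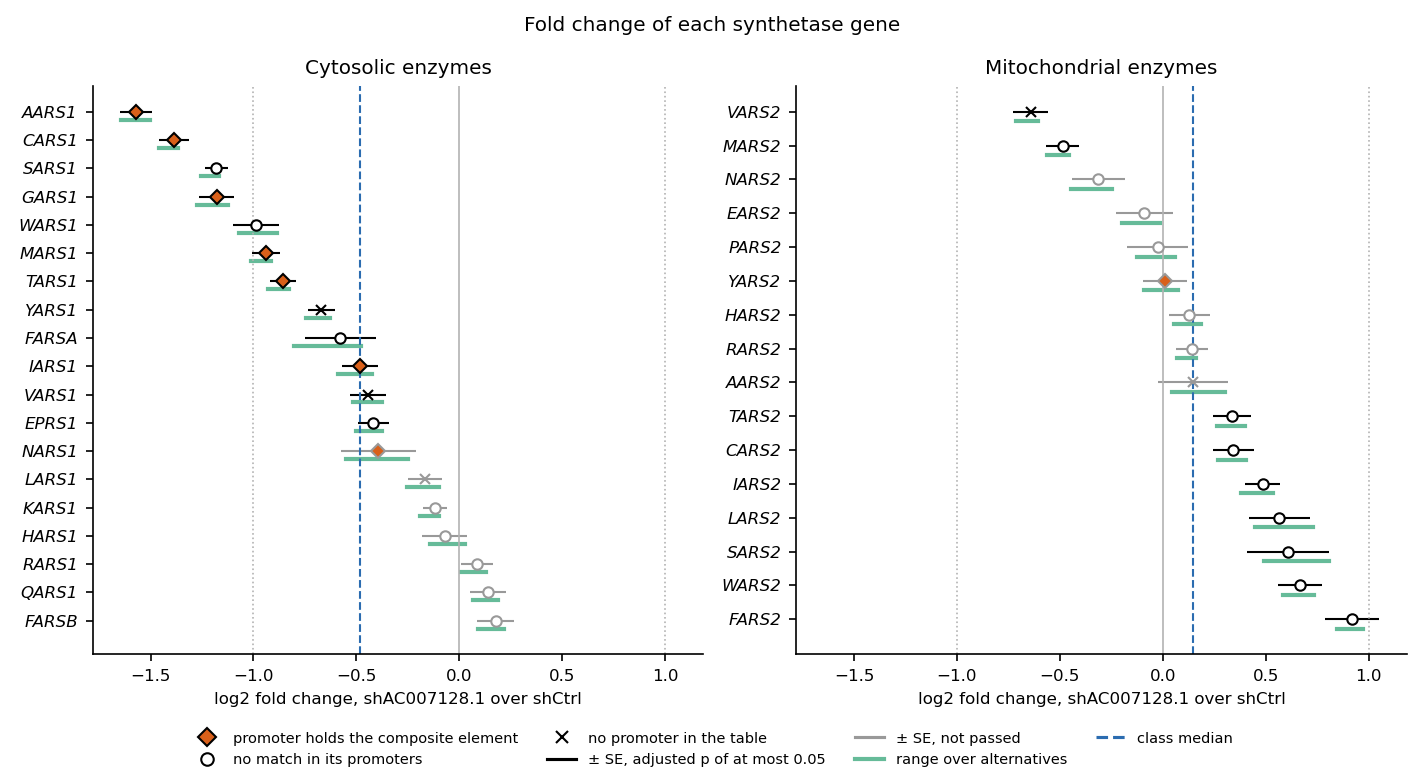
The log2 fold change of shAC007128.1 over shCtrl (x axis) for each gene, with its SE as a horizontal line that is black where the adjusted p was at most 0.05 and grey where it was not. A green line under each point spans the alternative settings, the dashed line is the median of the compartment, the dotted lines mark a fold of 2, and an orange diamond marks a promoter with the composite element. The 4 cytosolic genes AARS1, CARS1, SARS1 and GARS1 lie beyond the dotted line with their whole green span.

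The genes with the composite element were set against this order. Of the 7 cytosolic genes whose promoter holds it, 6 fell and 3 of these were called (AARS1, CARS1 and GARS1), with a median log2 fold change of -0.94. Of the 9 cytosolic genes with a promoter in the table and no match, 4 fell (EPRS1, FARSA, SARS1 and WARS1) and 1 was called, with a median of -0.12. Over all genes tested 19.8% fell and 10.1% were called lower. The fall of SARS1 and WARS1 thus came with no match in these 300 bases, and NARS1 held a match and did not pass. YARS2, the mitochondrial gene with a match, stood at a log2 fold change of 0.01. The difference between genes with and without a match was not tested.

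Summed over the 19 cytosolic genes, synthetase mRNA amounted to 6808, 6693 and 6529 CPM in shCtrl and 4100, 4115 and 4366 CPM in shAC007128.1 samples, 62.8% of control. Summed over the 16 mitochondrial genes, it amounted to 1003, 989.3 and 983.7 CPM in shCtrl and 1165, 1148 and 1216 CPM in shAC007128.1 samples, 119% of control. Neither sum overlapped between groups, and they moved in opposite directions. The mean of the mitochondrial sum went from 992.1 to 1177 CPM (n = 3 each). IARS2 alone went from 420.4 to 588.1 CPM, so this gene held most of that rise. The sum without IARS2 is not given here. The ratio of the cytosolic to the mitochondrial sum went from 6.73 ± 0.0808 to 3.56 ± 0.0397 (SD, n = 3 each). Since both sums come from the same sample, this ratio does not depend on the scaling of the libraries.

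The same comparison can be made within an amino acid, since 14 amino acids had a cytosolic and a mitochondrial enzyme among the 35 genes. They form 15 pairs, because the cytosolic enzyme for phenylalanine has 2 subunit genes. The log2 ratio of cytosolic to mitochondrial CPM was lower in every shAC007128.1 sample than in every shCtrl sample for 11 pairs, higher for 1 pair and overlapping for 3 pairs. For single genes, 28.2% of all tested were lower and 27.0% higher without overlap. No such share over ratios of other gene pairs is given here. The median change of the ratio was -0.76 on the log2 scale.

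The ratio changed by -1.75 to -1.65 on the log2 scale for serine, cysteine, alanine and tryptophan, which differed from each other by less than the spread between samples. Serine went from 4.49 ± 0.08 to 2.74 ± 0.43 (SD, n = 3 each), with the uneven SARS2 in its denominator. Cysteine went from 2.60 ± 0.07 to 0.87 ± 0.16 and alanine from 5.15 ± 0.14 to 3.45 ± 0.19. For these amino acids the shAC007128.1 samples all lay far below the controls. Isoleucine had ratios of 0.56, 0.63 and 0.64 in shCtrl and -0.39, -0.33 and -0.35 in shAC007128.1 samples. Its groups were the tightest of these examples. Which of IARS1 and IARS2 had the higher level is read only per length, since a ratio of CPM also holds the ratio of their lengths.

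Valine was the pair that went the other way, from 0.71 ± 0.08 to 0.91 ± 0.14, as VARS2 fell along with VARS1. For methionine both genes also fell, and the ratio dropped by 0.45. The ratios for arginine, asparagine and histidine overlapped between groups.

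**Figure D3:**
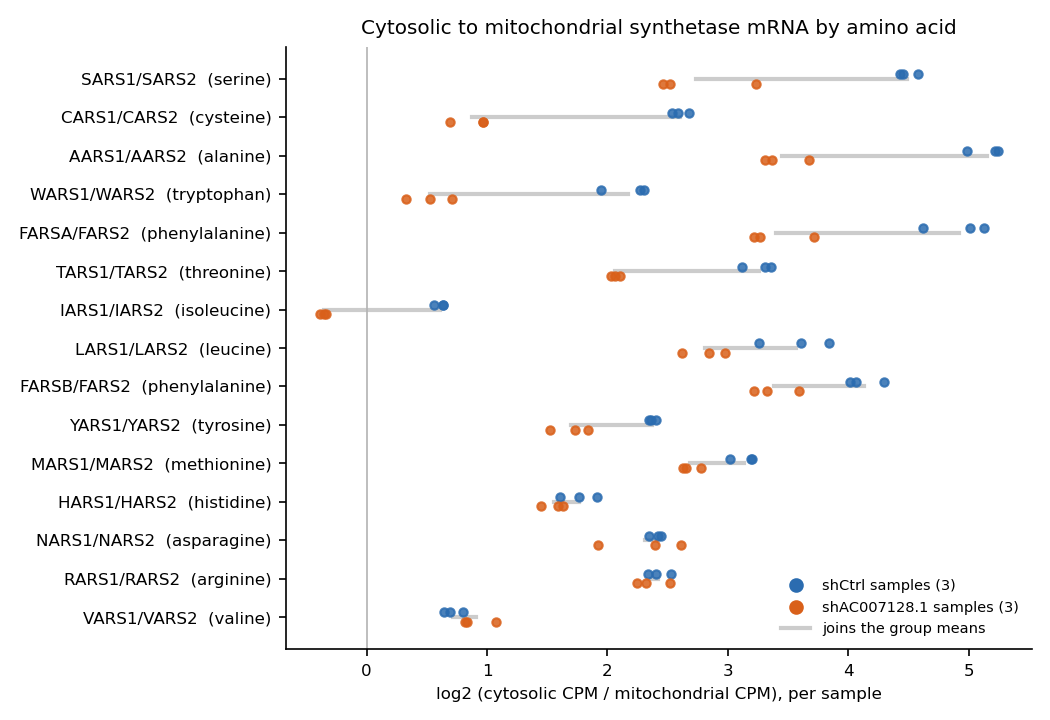
The log2 ratio of cytosolic to mitochondrial CPM (x axis) for 15 gene pairs, with 1 point per sample, blue for shCtrl and orange for shAC007128.1, and a grey bar that joins the group means. The orange points lie left of the blue ones in 11 pairs, and right of them for valine, while the position of 0 also holds the lengths of the genes.

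Levels of different genes were compared per length, in TPM, where each count is divided by the length of the union of the gene's exons and the result is scaled to the same total in every sample. On this scale the median level in shCtrl cells was 126.5 TPM over the cytosolic and 17.7 TPM over the mitochondrial genes, and in shAC007128.1 cells 75.1 and 22.9 TPM. The cytosolic gene was the higher one in shCtrl cells in 13 of the 15 pairs. The highest levels in shCtrl cells were those of EPRS1 (504.6 ± 3.63 TPM), SARS1 (362.7 ± 3.65 TPM) and IARS2 (323.4 ± 5.19 TPM), followed by AARS1 (275.9 ± 5.53 TPM) and KARS1 (275.3 ± 8.32 TPM; SD, n = 3 each). On the union of exons AARS1 and KARS1 did not differ beyond their spread. With the length of the Ensembl canonical transcript they did, at 534.6 ± 9.39 and 364.1 ± 10.1 TPM in shCtrl cells (SD, n = 3 each). The lowest on the union of exons were RARS2 (7.03 ± 0.357 TPM), LARS2 (5.93 ± 1.29 TPM) and FARS2 (3.92 ± 0.318 TPM), of which RARS2 and LARS2 lay within their spread. With the canonical length RARS2 was at 35.9 ± 1.70 TPM, in place 24, while PARS2 was in place 34 and FARS2 remained in place 35.

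In the shAC007128.1 cells the order changed at the top. IARS2 became the first of the 35, at 446.9 ± 41.2 TPM, ahead of EPRS1 at 373.2 ± 26.4 TPM (SD, n = 3 each), and AARS1 moved from place 4 to place 9. The order depends on the length used. The annotated exons of GARS1 add up to 17366 bases against 2437 for its Ensembl canonical transcript, and GARS1 stood in place 11 with the first length and in place 1 with the second. With canonical lengths the medians in shCtrl cells were 224.0 TPM for cytosolic and 28.3 TPM for mitochondrial genes, IARS2 was in place 8 in shCtrl and place 1 in shAC007128.1 cells, and the cytosolic gene was higher in all 15 pairs in shCtrl cells. For isoleucine these lengths gave IARS1 295.7 ± 8.90 TPM and IARS2 246.2 ± 3.03 TPM in shCtrl cells. In shAC007128.1 cells they gave 207.2 ± 25.5 and 337.0 ± 38.9 TPM (SD, n = 3 each), so the order of this pair turned with this length. It did not turn with the others: on the union of exons, and with the longest transcript (IARS1 186.5 and IARS2 299.3 TPM in shCtrl, 130.6 and 409.6 TPM in shAC007128.1 cells), IARS2 was the higher one in both groups.

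**Figure D4:**
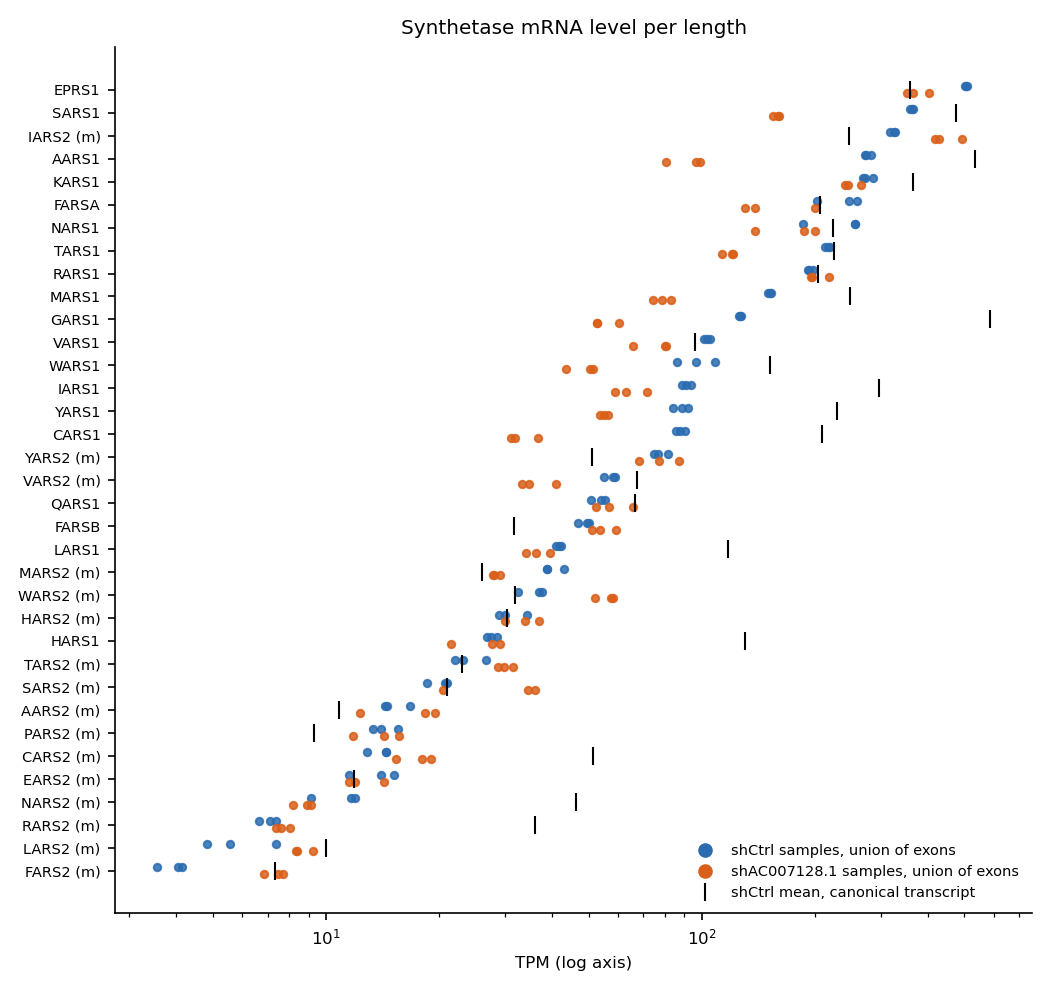
Level per length in TPM (log axis) for the 35 genes, ordered by the shCtrl mean, with 1 point per sample, blue for shCtrl and orange for shAC007128.1, on the union of exons. Mitochondrial genes are marked (m), and a black tick gives the shCtrl mean with the canonical transcript length, which lies far from the points for GARS1 and other genes with long annotated exons.

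The enzymes work among other factors that handle tRNA, and these were described from 6 lists. The scaffold proteins that hold the multisynthetase complex together, AIMP1, AIMP2 and EEF1E1, had log2 fold changes of 0.10, -0.03 and 0.26, and none of the 3 passed (edgeR adjusted p from 0.0796 to 0.823). AIMP2 shares 29.1% and EEF1E1 18.8% of its exonic bases with another gene, so the counts of AIMP2 and EEF1E1 are uncertain. Of the elongation factors that bring charged tRNA to cytosolic ribosomes, 4 of 5 were tested. EEF1A1, the carrier itself, fell (log2 fold change -0.36, edgeR adjusted p = 0.0167), and EEF1B2, a subunit of its exchange factor, rose (0.27, edgeR adjusted p = 0.0156). EEF1G, another subunit, ranged from 509.3 to 1632 CPM and did not pass. These factors have processed pseudogene copies, and EEF1G shares 2632 of its 2639 exonic bases with ENSG00000255508 on the same strand, so their counts are uncertain.

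Mitochondria lack a glutaminyl-tRNA synthetase, and an amidotransferase converts glutamate on the tRNA to glutamine instead. Its subunit GATB went from 11.9 ± 0.609 to 23.0 ± 2.48 CPM (SD, n = 3 each; log2 fold change 0.95, edgeR adjusted p = 0.000806). Its subunit QRSL1 went from 22.6 ± 3.05 to 38.7 ± 2.099 CPM (SD, n = 3 each; log2 fold change 0.77, edgeR adjusted p = 0.00197). MTFMT, which formylates the initiator methionyl-tRNA, also rose (0.47, edgeR adjusted p = 0.0109). These were 3 rises and 0 falls among 6 genes of mitochondrial charging and delivery, with a median of 0.26, while EARS2, which supplies the glutamate, did not pass. By the same rule 21.0% of all genes tested rose and 19.8% fell.

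Of 6 proofreading and synthetase-like genes, 3 fell and 0 rose, with a median log2 fold change of -0.27. They were PSTK, the kinase on the way from seryl-tRNA to selenocysteinyl-tRNA (-0.70, edgeR adjusted p = 0.0189), and the deacylases DTD2 (-0.46, edgeR adjusted p = 0.01) and DTD1 (-0.39, edgeR adjusted p = 0.0138). DTD2 shares 72.2% of its exonic bases with other genes, so its count is uncertain. Of the 10 genes of tRNA maturation and export, 2 fell, 2 rose and 6 did not pass, with a median of 0.04. These counts are close to the shares of 19.8% lower and 21.0% higher among all genes tested. XPOT, the exportin that carries tRNA out of the nucleus, fell from 585.6 ± 3.89 to 385.6 ± 35.6 CPM (SD, n = 3 each; log2 fold change -0.60, edgeR adjusted p = 0.000846). Subunits of the splicing endonuclease went both ways, with TSEN15 at -0.74 and TSEN34 at 0.45 (edgeR adjusted p = 0.00139 and 0.00543).

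The largest changes of the 6 lists were in that of uncharged tRNA sensing and response. The charging of tRNA was not measured, so these values are not a reading of it. This list holds the sensor kinase, its activator, ATF4 and genes below ATF4. Of its 8 genes 6 fell, 5 of them called, and the median log2 fold change was -2.25. By the same rules 19.8% of all genes tested fell and 10.1% were called lower. The sensor kinase EIF2AK4 and its activator GCN1 did not pass, at 0.22 and -0.05 (edgeR adjusted p = 0.0685 and 0.509). ATF4 mRNA fell from 441.3 ± 15.3 to 276.4 ± 26.5 CPM (SD, n = 3 each; log2 fold change -0.67, edgeR adjusted p = 0.000749).

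Below ATF4 in the pathway, ASNS, the asparagine synthetase and a textbook ATF4 target, had 356.5, 343.6 and 334.3 CPM in shCtrl and 59.0, 52.4 and 61.1 CPM in shAC007128.1 samples. All shAC007128.1 samples were thus far under the controls, at 16.7% (log2 fold change -2.58, edgeR adjusted p = 1.16e-05). An annotated lncRNA on the same strand covers 49.3% of its exonic bases, so the share of reads between these genes is uncertain. The log2 fold changes were -2.94 for CHAC1, a glutathione-degrading enzyme, -2.82 for the transcription factor DDIT3, -2.33 for the pseudokinase TRIB3 and -2.17 for SESN2, a regulator of mTORC1. Each of these 4 was called, and their groups did not overlap. DDIT3 shares 39.6% of its exonic bases with other genes, and 355 of its 1307 lie in MARS1 on the opposite strand. Its count is therefore uncertain, since the use of strand is not given. These folds were larger than that of any synthetase, of which AARS1 at -1.57 was the furthest from 0.

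**Figure D5:**
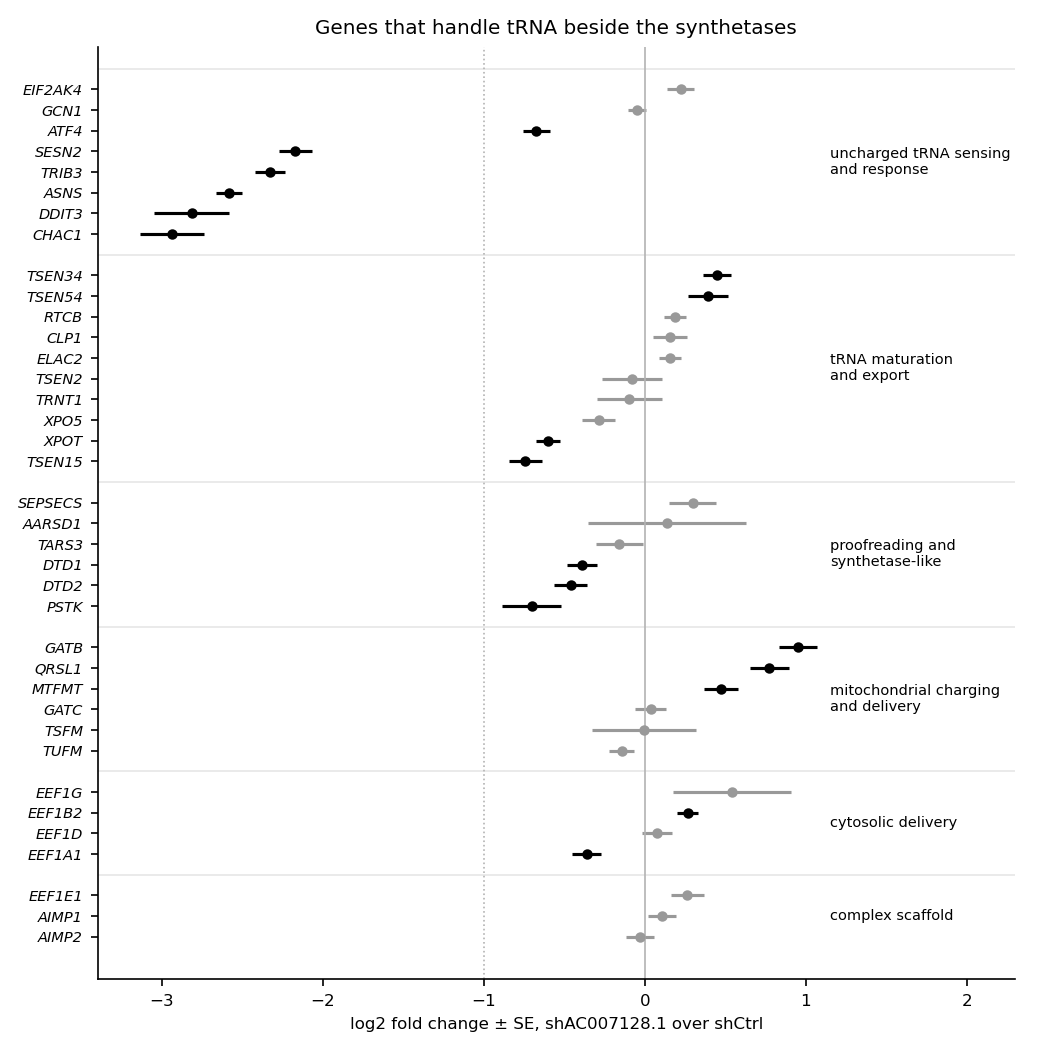
Log2 fold change of shAC007128.1 over shCtrl with its SE (x axis) for the tested genes of 6 lists of tRNA factors, black where the adjusted p was at most 0.05 and grey where it was not, with a dotted line at a fold of 2 lower. The 5 called genes of the response list lie between -2.94 and -2.17, and GATB, QRSL1 and MTFMT lie right of 0.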

How the data were processed

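Poly-A RNA of 6 KYSE150 samples was sequenced. For each Ensembl gene the authors deposited an estimated count, not normalized and written as a whole number, so none were rounded here. The submitters' processing notes list CASAVA 1.8, TopHat2 2.0.6 and the builds GRCh38 and mm10. The paper's methods name hg38, Cufflinks and Cuffdiff. The counting program, annotation release and use of strand are not given in the sources used here. Low counts piled up at 4 in shCtrl replicate 1, where 761, 1355 and 993 genes had counts of 3, 4 and 5. Samples were mapped by title and description, and 0 sample columns were left unmapped.

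Genes were placed with GENCODE v44 on hg38, which held 60357 of 67140 identifiers (89.9%). In R 4.3.3, edgeR 4.0.16 filtered genes (filterByExpr), scaled them by TMM (factors 0.967 to 1.042) and tested them (glmQLFit, glmQLFTest) with Benjamini-Hochberg adjustment over 19254 genes. The design has 3 samples a group and no covariate. Calls needed an adjusted p within 0.05 and a fold of at least 2, the limits of the study. SE is the log2 fold change over the root of F. The steps were tested on simulated counts. The alternatives were DESeq2 1.42.0, voom of limma 3.58.1, scaling by DESeq2's size factors or by library size only, leaving out the filter or asking for 10 or more counts from each sample, counts divided by 4, the replicate block, each sample left out and no limit on fold. For levels per length they were the longest transcript and, chosen after seeing the data, the canonical transcript.

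The members and lists were chosen with earlier results of these data known. Values in every sample are given for the called members, the 6 cytosolic and the 4 mitochondrial members with the smallest p, and in each list of tRNA factors the called genes and the 3 with the smallest p are named. Other genes were added after the results were seen. Of these, WARS1, FARSA, NARS1 and SARS2 have values in every sample and NARS2 in the shCtrl samples. IARS2 and ATF4 have group means, and AIMP1, AIMP2, EIF2AK4 and GCN1 have fold changes.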

Additional observations from a re-analysis of the deposited data

How the results depend on the processing

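Of 490 results (35 genes under 14 alternatives), 469 kept their direction and whether the gene was called, 10 came to pass the fold limit (9 for WARS1 and 1 for MARS1) and 11 changed sign, all for genes near 0. At an adjusted p of at most 0.05 alone, a pass was lost 30 times (in SARS2, CARS2, FARSA, TARS2 and LARS2) and gained 8 times (in KARS1, LARS1, NARS1, NARS2 and AARS2). AARS1, CARS1, GARS1 and SARS1 were called lower under all 14. With no limit on fold, 14 genes were lower and 7 higher. The number of cytosolic genes that fell was 11 to 14 and of those that rose 0 throughout. The number of mitochondrial genes that rose, 7, was 4 with library size only and 4 with no filter, and 3 to 8 with a sample left out. The cytosolic median of -0.48 was -0.51 with DESeq2, -0.56 with library size only, -0.52 with no filter, -0.51 with a minimum of 10 counts, -0.50 with counts divided by 4 and -0.53 to -0.47 with a sample left out. The mitochondrial median of 0.14 was 0.072 with library size only and 0.24 without shAC007128.1 replicate 3. The median of all genes moved from -0.02 to -0.15 with no filter and to -0.13 with DESeq2, where more genes were tested. YARS2, at 0.01, was -0.016 with DESeq2, -0.063 with library size only, -0.033 with no filter, -0.023 with the minimum of 10 counts and -0.0098 with counts divided by 4. With a sample left out YARS2 ranged from -0.089 to 0.072, PARS2 from -0.13 to 0.060 and HARS1 from -0.13 to 0.029. AC007128.1 ranged from -1.29 to -0.51 with a sample left out. The cause of these shifts was not tested.

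The replicate numbers did not pair the samples, since the deviations of same-numbered samples correlated at 0.031, -0.025 and -0.030. With the replicate block 11 cytosolic genes fell, 5 mitochondrial genes rose and 2 fell, 4 genes were called, the medians were -0.49 and 0.14, and AC007128.1 had a log2 fold change of -0.82 (edgeR adjusted p = 0.363).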
